A study of Mus musculus with 19 samples.

Results

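The miR-99/100 family (mmu-miR-99a-5p, mmu-miR-99b-5p and mmu-miR-100-5p) and the miR-125 family (mmu-miR-125a-5p and mmu-miR-125b-5p) were followed across 3 tissues of 2 mouse strains, together with the 3p arms cut from the same stems. The species prefix mmu, for mouse, is left out from here on. The members were chosen by name: 5 mature 5p arms and 6 3p arms, 11 of the 1136 miRNAs on the array. miR-99b-5p served the study as the reference for its quantitative PCR, so its level and its spread are given beside those of its relatives. The study asked whether miRNAs differ between an inbred strain that runs much on a wheel (C57L/J, high-active) and an inbred strain that runs little (C3H/HeJ, low-active). The mice were male and untreated, were 8 weeks old when housed singly, and spent 1 week with a locked wheel before tissues were taken, so the strains differ in genotype throughout and not in exercise.

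One-colour microarrays were hybridised with total RNA of the nucleus accumbens, a brain region of reward and motivation, and of 2 leg muscles, the slow soleus and the fast extensor digitorum longus (EDL). Of the 19 arrays, 7 held nucleus accumbens RNA (4 high-active, 3 low-active), 6 soleus RNA (4 high-active, 2 low-active) and 6 EDL RNA (2 high-active, 4 low-active), from 8 mice on 3 slides. Values are log2 spot signals after each array was scaled by a percentile of its bright probes. Precision is limited by the number of arrays, and a miRNA's signal says nothing of its level relative to another miRNA, since probes differ in brightness. In RNA of a whole tissue, fewer cells that hold a miRNA and less of it per cell cannot be told apart.

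The summed signal of 4 muscle miRNAs was 18.7 to 19.6 in the muscles. In the nucleus accumbens it was 11.0 on low-active replicate 1 and 8.60 to 8.96 on the other arrays. The sum of 6 brain miRNAs was 16.3 to 16.9 in the nucleus accumbens and 9.89 to 11.4 in the muscles. Of those 6, 3 to 5 were detected on no array of a muscle group. Within the nucleus accumbens, 4 arrays stood apart: 3 high-active arrays and 1 low-active array had sums of 7 epithelial miRNAs between 12.4 and 14.3, against 7.37 to 7.89 on the other arrays of that tissue and 7.21 to 8.49 in the muscles. The low-active array was replicate 1, which also had the muscle sum of 11.0. The part of the 4 arrays in the results was not tested, and values without them stand beside some of the results. Red cell miRNAs summed to 10.8 to 12.2 on the high-active and 11.9 to 13.6 on the low-active arrays of the nucleus accumbens. Between 349 and 392 miRNAs were detected per nucleus accumbens array and between 242 and 346 per muscle array.

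A mature miRNA finds its target messages mainly through bases 2 to 8 from its 5′ end, the seed, and members of a family share it. miR-125 is the mammalian counterpart of lin-4, the first miRNA found in worms, and is abundant in brain. The miR-99/100 family is known for targets in the mTOR growth pathway. The genes lie in 3 ancient clusters, each holding a miR-99/100 gene, a let-7 gene and a miR-125 gene. One precursor hairpin yields a 5p and a 3p arm, and usually 1 arm is kept and the other degraded.

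The 5p members are printed below to show that seeds are identical within each family, since near-identical sequences bear on how far array probes can separate the members. Capitals mark the seed, and sequences are from RefSeq on GRCm38.p6.
miR-99a-5p: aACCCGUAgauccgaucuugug
miR-99b-5p: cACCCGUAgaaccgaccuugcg
miR-100-5p: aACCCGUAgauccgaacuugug
miR-125a-5p: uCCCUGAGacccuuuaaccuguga
miR-125b-5p: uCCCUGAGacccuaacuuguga

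Counted from 1 at the 5′ end, miR-99a-5p and miR-100-5p differed by 1 of 22 bases, U16A. miR-99b-5p differed from miR-99a-5p by A1C, U11A, U16C and U21C, and from miR-100-5p also by 4 substitutions. miR-125a-5p (24 bases) and miR-125b-5p (22 bases) shared their first 13 and last 5 bases. Whether the probes of miR-99a-5p and miR-100-5p keep these miRNAs apart was not tested.

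All 11 members were matched to RefSeq. miR-99a-5p lies at chr16:77598940-77598961, and miR-125b-5p has a gene 47.3 kb further on at chr16:77646279-77646300, none of the cluster lying within another gene. miR-100-5p lies at chr9:41531437-41531458 and the other miR-125b-5p gene, 50.5 kb away, at chr9:41581940-41581961, within the long noncoding RNA gene Mir100hg. miR-99b-5p at chr17:17830194-17830215 and miR-125a-5p at chr17:17830817-17830840 are only 0.623 kb apart, within the protein-coding gene Spaca6. All are on the plus strand.

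The hairpin of miR-125a is shown because its arms behaved differently between tissues. In the hairpin (chr17:17830812-17830879, plus strand) capitals mark the 5p arm and then the 3p arm.
Mir125a: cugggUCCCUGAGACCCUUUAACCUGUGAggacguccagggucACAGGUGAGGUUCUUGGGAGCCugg

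The 3p arms that gave signal, and miR-99a-3p, whose software totals are described further on, have these sequences, with bases 2 to 8 in capitals.
miR-99a-3p: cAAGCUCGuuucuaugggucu
miR-99b-3p: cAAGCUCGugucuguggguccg
miR-125a-3p: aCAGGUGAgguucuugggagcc

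All 5 5p members were detected on all 19 arrays, each by both of its probes, and no spot of them was saturated. miR-99b-5p, the quantitative PCR reference, had log2 signals of 9.37, 9.76, 9.72 and 9.69 in high-active nucleus accumbens, against 9.52, 9.65 and 9.67 in low-active nucleus accumbens. In the soleus it measured 7.96, 8.30, 8.35 and 8.53 in high-active mice and 8.17 and 8.23 in low-active mice. In the EDL the values were 8.07 and 8.40 in high-active mice, and 7.75, 8.33, 8.03 and 8.37 in low-active mice. The strains overlapped in all 3 tissues, and the lowest nucleus accumbens array lay above the highest muscle array.

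In the nucleus accumbens miR-99b-5p thus averaged 9.64 ± 0.18 (SD, n = 4 high-active mice), against 9.61 ± 0.08 (n = 3 low-active mice). Its soleus means were 8.28 ± 0.24 (n = 4, high-active) against 8.20 ± 0.04 (n = 2, low-active), and its EDL means 8.23 ± 0.23 (n = 2, high-active) against 8.12 ± 0.29 (n = 4, low-active). From high to low, both strains ran nucleus accumbens, soleus and EDL, and the 2 muscles did not differ beyond their spread.

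**Figure D1:**
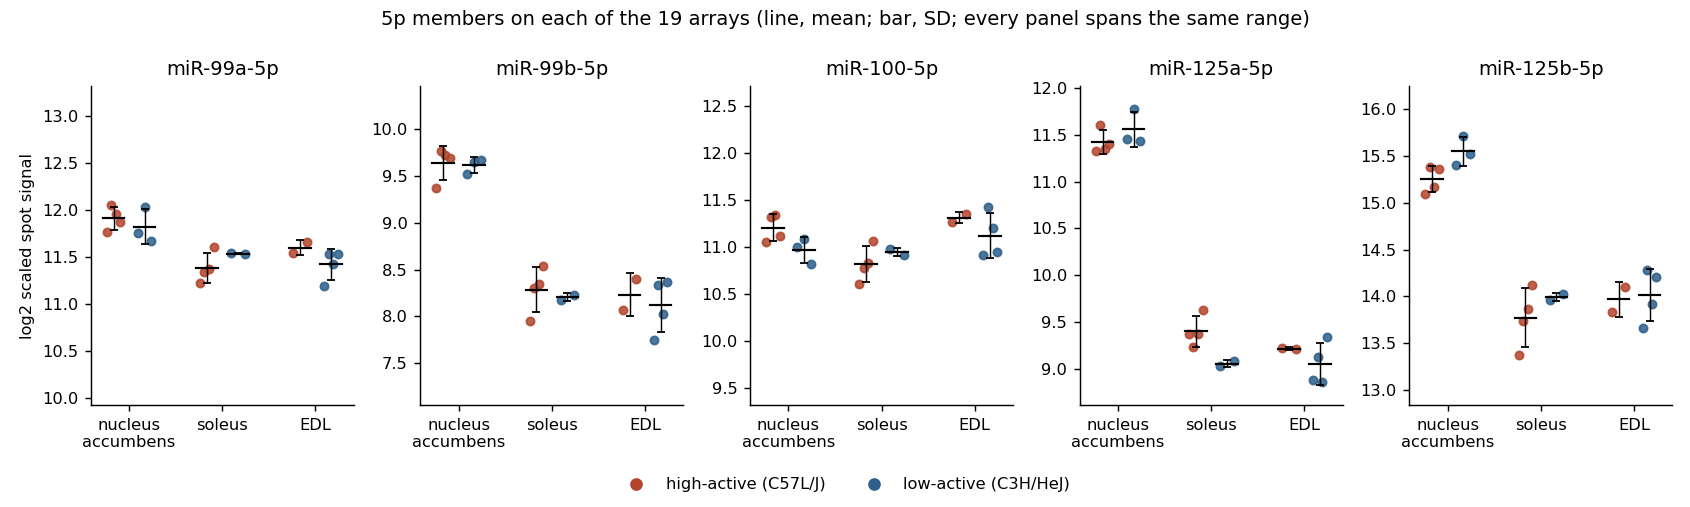
Log2 scaled spot signal (y axis) of the 5 5p members on the 19 arrays, by tissue and strain, with the group mean (line) and SD (bar). Every panel spans the same range: miR-99b-5p, miR-125a-5p and miR-125b-5p stand higher in the nucleus accumbens, with miR-99b-5p between 9.37 and 9.76 there, while miR-99a-5p and miR-100-5p lie close together in all tissues.

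miR-99a-5p measured 11.76, 12.06, 11.96 and 11.87 in high-active and 11.76, 12.03 and 11.67 in low-active nucleus accumbens. In the soleus it was 11.22, 11.34, 11.37 and 11.61 in high-active mice and 11.54 and 11.53 in low-active mice. In the EDL, high-active mice gave 11.55 and 11.66 and low-active mice 11.19, 11.54, 11.43 and 11.54. Its tissues lay close together, though the lowest nucleus accumbens array (11.672) was just above the highest muscle array (11.657). The strains overlapped in every tissue once arrays were scaled within it, though barely parted in the EDL on this common scale.

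miR-100-5p, its relative by U16A, measured 11.05, 11.32, 11.34 and 11.11 in high-active and 11.00, 11.08 and 10.81 in low-active nucleus accumbens. In the soleus it was 10.61, 10.77, 10.83 and 11.06 in high-active and 10.98 and 10.91 in low-active mice. The EDL gave 11.27 and 11.35 in high-active and 10.92, 11.42, 11.21 and 10.94 in low-active mice. All tissues overlapped for this member.

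miR-125a-5p measured 11.33, 11.60, 11.35 and 11.40 in high-active and 11.46, 11.77 and 11.44 in low-active nucleus accumbens. In the soleus the values were 9.38, 9.24, 9.38 and 9.63 in high-active mice, against 9.03 and 9.09 in low-active mice. The EDL gave 9.23 and 9.21 in high-active and 8.88, 9.13, 8.87 and 9.35 in low-active mice. Every nucleus accumbens array stood well above every muscle array, and in the soleus all high-active values exceeded both low-active ones.

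miR-125b-5p measured 15.10, 15.39, 15.17 and 15.36 in high-active and 15.40, 15.71 and 15.52 in low-active nucleus accumbens. Its soleus values were 13.37, 13.74, 13.87 and 14.12 in high-active and 13.96 and 14.02 in low-active mice. In the EDL it was 13.84 and 14.10 in high-active and 13.66, 14.28, 13.92 and 14.20 in low-active mice. It too was higher in the nucleus accumbens than in either muscle on every array. The 3 low-active nucleus accumbens arrays lay just above the high-active ones on this scale, but overlapped them once arrays were scaled within the tissue.

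None of the members passed the test between strains. With limma and Benjamini-Hochberg adjustment within each tissue, 0 of 5 5p members and 0 of the 2 3p members tested passed in the nucleus accumbens, soleus or EDL, where 6.91%, 1.19% and 0.303% of all miRNAs tested did (27 of 391, 4 of 335 and 1 of 330). Leaving out 1 array moved these counts over all miRNAs to 8 to 31, 0 to 6 and 0 to 4. Without the 4 arrays of high epithelial signal, which leaves only 1 high-active array and 2 low-active ones in the nucleus accumbens, limma called 0 of 370 there (60 at an unadjusted p under 0.05). With all arrays, the counts at an unadjusted p under 0.05 were 77, 55 and 24. The members' median difference, high-active minus low-active, was 0.06 in the nucleus accumbens, -0.07 in the soleus and 0.15 in the EDL, beside -0.11, -0.02 and 0.02 over all miRNAs tested. Tests within a tissue used arrays scaled within that tissue.

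For miR-99b-5p the strain difference was 0.06 in the nucleus accumbens (95% interval -0.31 to 0.42, adjusted p = 0.835), 0.14 in the soleus (-0.28 to 0.57, adjusted p = 0.697) and 0.10 in the EDL (-0.47 to 0.67, adjusted p = 0.943). These intervals are the sizes the arrays leave possible, and they do not show that the strains are equal. Within single slides the difference was 0.08 and 0.13 in the nucleus accumbens, 0.36 and 0.17 in the soleus, and -0.08 and 0.20 in the EDL. Without the 4 arrays of high epithelial signal the nucleus accumbens difference was -0.29 (adjusted p = 0.431).

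Among its relatives the intervals were of much the same width. miR-99a-5p differed by 0.13 in the nucleus accumbens (-0.26 to 0.52), -0.09 in the soleus (-0.43 to 0.24) and 0.17 in the EDL (-0.29 to 0.62). miR-100-5p differed by 0.28 in the nucleus accumbens (-0.08 to 0.63), -0.07 in the soleus (-0.44 to 0.31) and 0.18 in the EDL (-0.29 to 0.64). miR-125b-5p differed by -0.26 in the nucleus accumbens (-0.67 to 0.15), -0.16 in the soleus (-0.67 to 0.35) and -0.06 in the EDL (-0.61 to 0.49). Each of these had an interval that held 0. Without the 4 arrays of high epithelial signal, the nucleus accumbens differences moved, in a fit with only 1 high-active array. They were -0.09 for miR-99a-5p, 0.10 for miR-100-5p, -0.28 for miR-125a-5p and -0.52 for miR-125b-5p.

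The widest gap between strains among the 5p members was that of miR-125a-5p in the soleus. On the soleus scale it measured 9.35, 9.19, 9.43 and 9.52 in high-active mice, against 9.02 and 8.92 in low-active mice. The difference was 0.40 (SE 0.135, 95% interval 0.08 to 0.73), with an adjusted p of 0.211 from limma. Groups that do not overlap, with high-active above, were seen for 17.6% of all miRNAs tested in the soleus. Within slides the difference was 0.60 and 0.29. In the nucleus accumbens miR-125a-5p differed by -0.10 and in the EDL by 0.15, and the difference of the strain effect between nucleus accumbens and soleus, -0.49 (SE 0.182), had an adjusted p of 0.146. No member passed the test of such a difference between any pair of tissues, beside 7.87%, 6.21% and 0.621% of all 483 miRNAs tested for nucleus accumbens against soleus, nucleus accumbens against EDL, and soleus against EDL. For nucleus accumbens against EDL that is 30 miRNAs, and 51 without the 4 arrays of high epithelial signal.

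**Figure D2:**
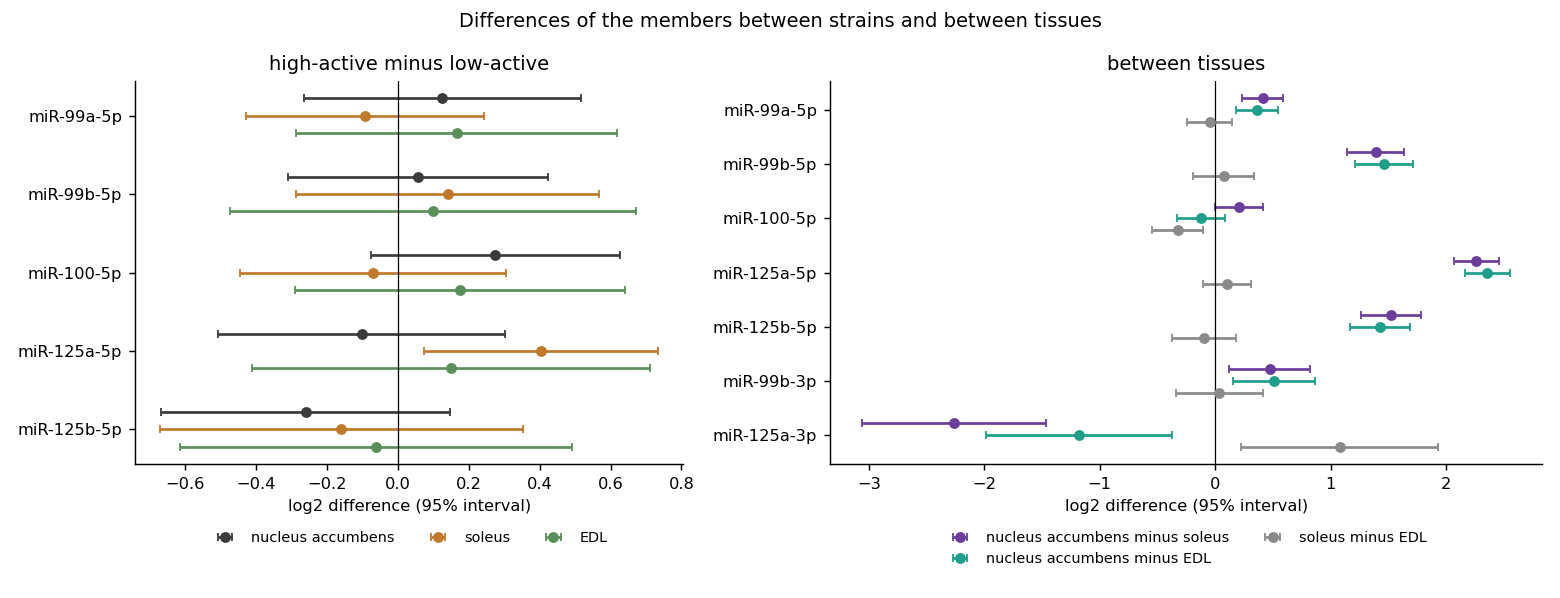
Log2 differences (x axis) with 95% intervals, for the 5p members between strains in each tissue (left) and for the 5p members and 2 3p arms between tissues (right). Strain differences lie near 0, with miR-125a-5p in the soleus at 0.40, while miR-125a-5p, miR-125b-5p and miR-99b-5p stand 1.39 or more above either muscle in the nucleus accumbens on the reported scale.

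On the reported scale, miR-99b-5p was nearer in its tissue differences to miR-125b-5p than to miR-99a-5p and miR-100-5p, its relatives by seed. With quantile normalization miR-99b-5p was higher in the nucleus accumbens by 0.70 over the soleus and 0.86 over the EDL. That was nearer to miR-99a-5p (0.29 and 0.17) than to miR-125b-5p (3.02 and 2.76). On the common scale of 19 arrays, 4 of 5 5p members were higher in the nucleus accumbens than in the soleus and 0 were lower, beside 47.6% and 32.1% of all 483 miRNAs tested. Against the EDL it was also 4 higher and 0 lower, beside 47.8% and 29.2%. With the percentile taken over all probes in place of those detected on every array, 3 were higher and 1 lower against the soleus (miR-100-5p), and 3 higher and 2 lower against the EDL (miR-99a-5p and miR-100-5p). With quantile normalization it was 4 higher and 1 lower against the soleus, and 3 higher and 1 lower against the EDL, the lower one being miR-100-5p. The median difference of the members was 1.39 and 1.43, and that of all miRNAs 0.20 and 0.20. Of all miRNAs past the test, 59.7% were higher in the nucleus accumbens than in the soleus and 62.1% than in the EDL, but 48.1% and 46.7% with the percentile over all probes. With quantile normalization these shares were 50.1% and 50.5%. Those past the test against soleus and EDL were 391 and 379 of 480 miRNAs with the percentile over all probes. With quantile normalization they were 401 and 378 of 484.

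On the reported scale miR-125a-5p differed most, by 2.26 over the soleus (SE 0.0911, adjusted p = 9.18e-13) and 2.36 over the EDL (SE 0.0916, adjusted p = 5.91e-13), which is 4.79-fold and 5.13-fold. miR-125b-5p was higher by 1.52 (SE 0.122, 2.88-fold) and 1.43 (SE 0.122, 2.69-fold). In the same mouse, the nucleus accumbens exceeded the soleus in 6 of 6 mice for both, by 1.77 to 2.68 for miR-125a-5p and 1.24 to 1.79 for miR-125b-5p. It exceeded the EDL in 5 of 5 mice, by 2.17 to 2.58 and by 1.29 to 1.74.

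miR-99b-5p was higher by 1.39 over the soleus (SE 0.116, 95% interval 1.14 to 1.64, adjusted p = 1.47e-08) and by 1.46 over the EDL (SE 0.117, 1.21 to 1.71, adjusted p = 8.65e-09), which is 2.62-fold and 2.76-fold. High-active mice gave 1.35 over the soleus and 1.42 over the EDL, and low-active mice 1.43 and 1.50. Every mouse showed the direction, by 1.07 to 1.76 in 6 mice for the soleus and by 1.28 to 1.77 in 5 mice for the EDL. The muscles differed from each other by 0.07 (-0.19 to 0.34). It stayed higher, and past the test, with the percentile over all probes (0.83 and 0.80) and with quantile normalization (0.70 and 0.86), at smaller sizes. Without the 4 arrays of high epithelial signal it was higher by 1.30 and 1.35.

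On this scale its relatives by seed had smaller differences, though miR-100-5p reached the size of miR-99b-5p against the EDL, in the other direction, with the percentile over all probes. miR-99a-5p was higher in the nucleus accumbens by 0.41 (SE 0.0846, adjusted p = 0.00035) over the soleus and 0.36 (SE 0.0851, adjusted p = 0.0011) over the EDL, but by -0.15 and -0.30 with the percentile over all probes, so its direction rests on the scaling. miR-100-5p differed by 0.20 from the soleus (95% interval -0.00 to 0.41, adjusted p = 0.0658) and by -0.12 from the EDL (adjusted p = 0.267). With the percentile over all probes it was lower in the nucleus accumbens than in the soleus (-0.35, adjusted p = 0.0309) and the EDL (-0.78, adjusted p = 9.73e-05), and likewise with quantile normalization (-0.20 and -0.50). Against the EDL it was also called lower with software totals (-0.37), with the mean of its probes (-0.34) and without low-active EDL replicate 4 (-0.30), while unscaled it was 0.22 with no call. Against the soleus it was called higher, at 0.20 to 0.25, without high-active soleus replicate 4, low-active EDL replicate 2, high-active nucleus accumbens replicate 1 or low-active nucleus accumbens replicate 3. It was the 1 member of 5 lower in soleus than in EDL, by -0.33 (SE 0.105, adjusted p = 0.0438), beside 9.94% of all miRNAs lower and 7.25% higher. That call was lost in 11 of 19 fits that left out 1 array and in a fit with the mouse as a fixed block (-0.26, adjusted p = 0.233). In 4 of 4 mice with both muscles the soleus value was below the EDL value, with differences of -0.52 to -0.03.

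The probes of a member did not always give the same size. For miR-100-5p the probe not used gave -0.58 for nucleus accumbens minus EDL and -0.61 for soleus minus EDL, against -0.13 and -0.33 for the brighter probe used. For miR-125b-5p it gave 1.90 over the soleus against 1.52. The probes of miR-99b-5p gave 1.51 and 1.38 over the soleus.

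The let-7 miRNAs of the same clusters were also higher in the nucleus accumbens on this scale, to unlike degrees, let-7 being a family that restrains growth in differentiated cells. let-7e-5p, of the compact cluster with miR-99b and miR-125a, was higher in the nucleus accumbens by 2.38 over the soleus (5.20-fold) and 2.56 over the EDL (5.89-fold), beside 1.39 and 1.46 for miR-99b-5p and 2.26 and 2.36 for miR-125a-5p. let-7c-5p, neighbour of miR-99a, was higher by 0.49 and 0.64, and let-7a-5p, of which 1 gene neighbours miR-100, by 0.38 and 0.55. All 3 passed against both muscles, beside 79.7% of all 483 miRNAs tested against the soleus and 77% against the EDL. Between the muscles 0 of 3 passed, beside 17.2%. With the percentile over all probes let-7e-5p stayed higher, by 1.82 and 1.90, while let-7c-5p (-0.077 and -0.024) and let-7a-5p (-0.18 and -0.11) changed sign and passed neither test. With quantile normalization let-7c-5p (0.94 and 0.86) and let-7a-5p (1.36 and 1.28) moved the other way, and let-7e-5p was higher by 2.11 and 2.24.

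The miR-10 family differs from miR-99/100 by a shifted seed, and its members are shown because miR-10a-5p shares a 10-base stretch with miR-99a-5p. The stretch begins at base 7 in miR-10a-5p and at base 6 in miR-99a-5p. miR-10b-5p differs from miR-10a-5p by U12A, which falls within that stretch. Capitals mark bases 2 to 8.
miR-10a-5p: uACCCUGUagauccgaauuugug
miR-10b-5p: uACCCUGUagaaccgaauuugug
miR-10b-5p was not well above background in the nucleus accumbens and its soleus mean stood at least 77.8-fold higher, its EDL mean at least 68.4-fold higher. These folds set the muscle mean against, on each nucleus accumbens array, the higher of the lowest detected signal and the probe's own. miR-10a-5p was detected on 1 of 7 nucleus accumbens arrays, with its scaled signal at the floor on all 7, and by the same measure was at least 39.8-fold higher in soleus and at least 29.0-fold higher in EDL. Both were thus higher in muscle, where miR-99b-5p was lower. miR-351-5p, which shares the miR-125 seed, was detected on no array.

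The 3p arms had little signal. miR-100-3p, miR-125b-1-3p and miR-125b-2-3p were detected on none of 19 arrays, and miR-99a-3p on 1, with its scaled signal at the floor on all 19. miR-99b-3p was detected on 15 arrays, at 4.88 to 5.55 in the nucleus accumbens, 4.41 to 5.09 in the soleus and 4.41 to 5.28 in the EDL, the lowest values being the floor. It was higher by 0.47 and 0.51 in the nucleus accumbens (adjusted p = 0.0159 and 0.0109), but by -0.068 and -0.053 with the percentile over all probes, and the call was lost without the 4 arrays of high epithelial signal (adjusted p = 0.101 and 0.109).

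miR-125a-3p was the exception among the 3p arms, detected on every array by at least 1 probe. It measured 5.24, 5.41, 5.02 and 5.47 in high-active and 5.36, 5.67 and 5.48 in low-active nucleus accumbens. In the soleus it was 6.33, 8.78, 6.42 and 7.33 in high-active mice and 7.60 and 8.69 in low-active mice. The EDL gave 5.87 and 6.66 in high-active and 5.79, 6.91, 7.20 and 7.56 in low-active mice. All muscle arrays lay above all nucleus accumbens arrays, the reverse of its 5p partner, and the muscle values spread widely within a strain.

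The difference, nucleus accumbens minus soleus, was -2.26 (SE 0.374, adjusted p = 4.37e-05), which is 4.79-fold lower, and minus EDL -1.18 (SE 0.376, adjusted p = 0.00966), 2.27-fold lower. It was lower in 6 of 6 mice against the soleus and 5 of 5 against the EDL. Against the EDL the call was lost without high-active EDL replicate 2 (-0.97, adjusted p = 0.0629) and without the 4 arrays of high epithelial signal (-1.28, adjusted p = 0.0791). The 3 dimmer of its 4 probes gave -1.14 to -1.45 for nucleus accumbens minus soleus, where the brightest gave -2.29, and 0.13 to 0.27 for soleus minus EDL, where the brightest gave 1.11. Between strains miR-125a-3p differed by -0.18, -0.87 (95% interval -2.65 to 0.91) and -0.61 (-1.74 to 0.51) in nucleus accumbens, soleus and EDL.

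On the same array, miR-125a-5p minus miR-125a-3p was 5.93 to 6.33 in the nucleus accumbens, 0.40 to 3.05 in the soleus and 1.66 to 3.36 in the EDL. A difference of 2 probes on 1 array does not depend on array scaling, and the nucleus accumbens range did not meet those of the muscles. For miR-99b, 5p minus 3p was 4.10 to 4.84 in the nucleus accumbens, 3.20 to 3.95 in the soleus and 3.09 to 3.78 in the EDL, but 3p values at the floor make some of these lower bounds in the muscles. miR-99a-5p minus miR-100-5p, the pair that differs by U16A, was 0.62 to 0.95 in the nucleus accumbens, 0.54 to 0.62 in the soleus and 0.11 to 0.59 in the EDL.

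**Figure D3:**
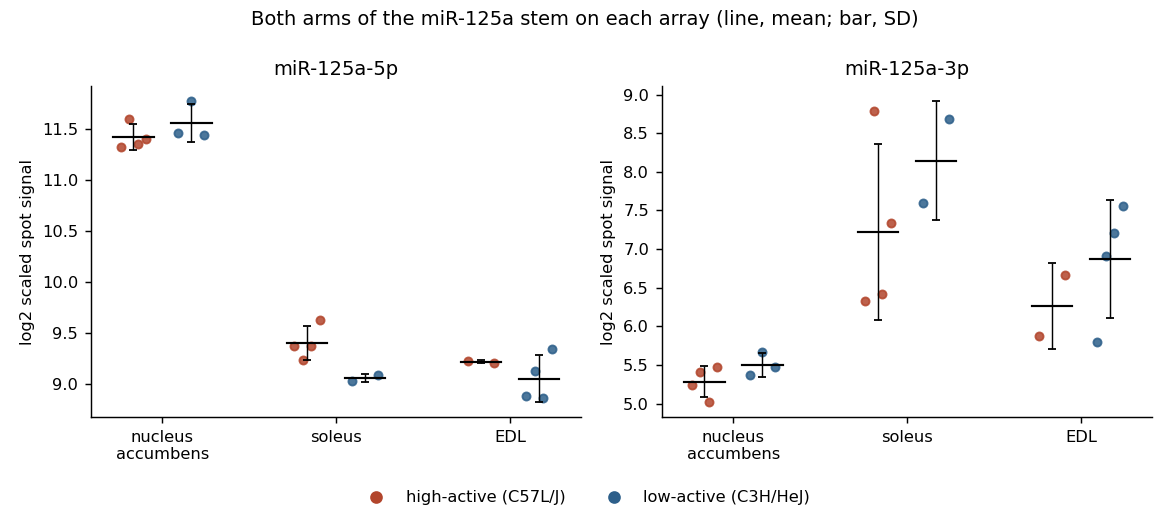
Log2 scaled spot signal (y axis) of miR-125a-5p (left) and miR-125a-3p (right) on each array, by tissue and strain, with the group mean (line) and SD (bar). The 5p arm is highest in the nucleus accumbens, at 11.33 to 11.77, where the 3p arm is lowest, at 5.02 to 5.67.

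The scanner software's own total per miRNA carried other miRNAs' signal for these 3p arms. For each of the 5 5p members, the software's total equalled the sum over its own probes on 19 of 19 arrays, within a tolerance of 0.02 (0.1 for totals over 10000). For miR-99b-3p the total did so on 9 arrays (11.9 to 27.4), was 0.1, the software's value for not detected, on 1, and on the other 9 was 750 to 3344. Those 9 totals equalled its own part, 3.36 to 18.1, plus the total of miR-99a-5p on the same array, 746 to 3327.

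For miR-99a-3p, 12 arrays had 0.1 and 7 had 387 to 1168, equal to its own 5.39 to 9.38 plus the total of miR-98-5p, 382 to 1159. These 7 were 2 high-active and 2 low-active nucleus accumbens arrays, both low-active soleus arrays and 1 high-active EDL array. For miR-125a-3p, 15 totals were its own (20.7 to 156), and 4 nucleus accumbens totals of 64.4 to 158 equalled its own 14.4 to 20.8 plus the total of miR-124-5p, 49.9 to 137. On 1 array each, the total of miR-21a-5p also matched for miR-99b-3p, and those of miR-330-5p and miR-466f-3p for miR-125a-3p. The cause was not tested, and values not named as software totals are spot signals, which carry none of this.

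**Figure D4:**
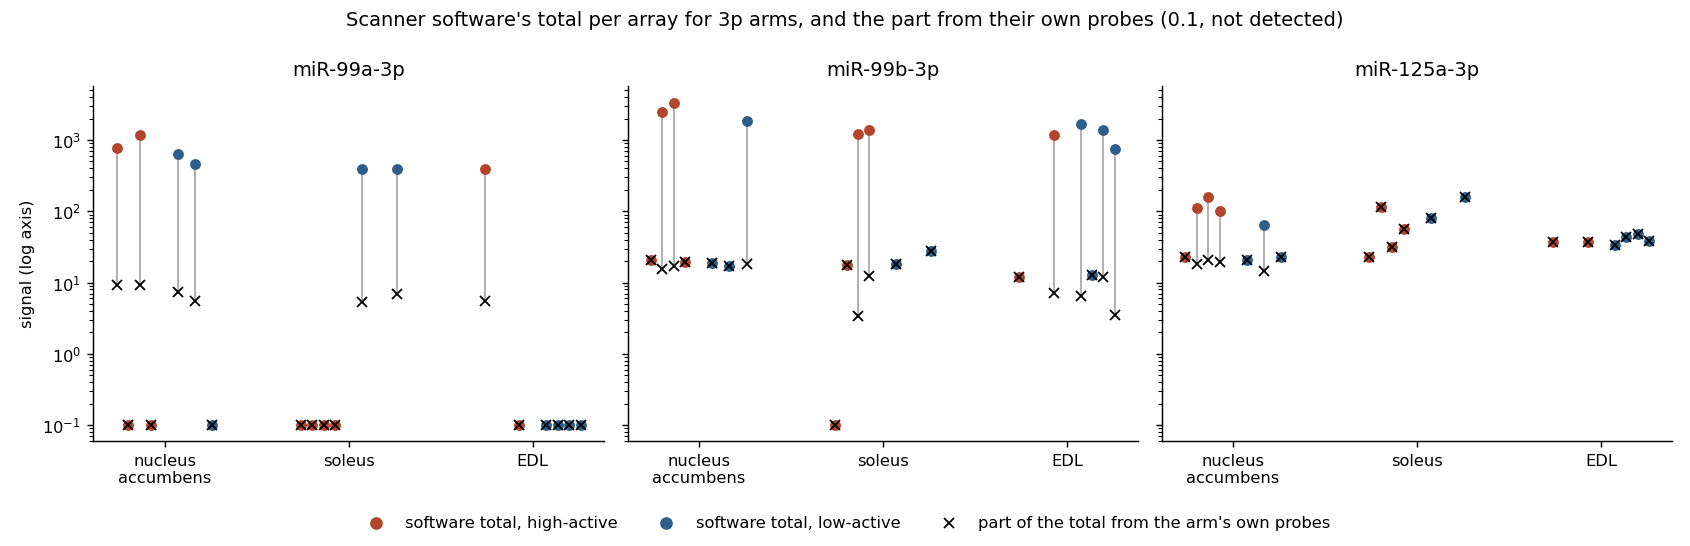
The scanner software's total per array (coloured points, log axis) for miR-99a-3p, miR-99b-3p and miR-125a-3p, and the part from their own probes (crosses), by tissue and strain, with 0.1 for not detected. Where points and crosses part, the total holds another miRNA's signal: the 9 raised totals of miR-99b-3p lie at 750 to 3344 and the crosses under them at 3.36 to 18.1.

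In the authors' normalized table, centred on each miRNA within a tissue, the values of these arms followed the own part and not the software's total: the largest differences for miR-99b-3p in the nucleus accumbens were 0.86 and 8.27 on the log2 scale. miR-99a-3p in the soleus stood at 4.95 and 5.31 in low-active mice, against -0.47 to 0.21 in high-active mice, in that table. Behind this lay own totals of 5.39 and 6.88 on the low-active arrays and 0.1 on the high-active arrays, and the scaled spot signals, 8.6 to 18.7 over the soleus arrays, overlapped and were all under the floor of 21.2. A strain difference of miR-99a-3p was therefore not measurable here.

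Stability was taken as the SD of log2 signals within groups, pooled over the 6 groups. Among the 184 miRNAs detected on every array, miR-99b-5p had a pooled SD of 0.213 (95% interval 0.155 to 0.343) and ranked 57 from the steadiest, where the median miRNA had 0.286. Its relatives miR-99a-5p (0.147, rank 9), miR-125a-5p (0.166, rank 14) and miR-100-5p (0.171, rank 19) had smaller SDs, and miR-125b-5p (0.228, rank 66) a slightly larger one. The intervals overlap, so this order is a description. Of other miRNAs in use as references, miR-16-5p had 0.152 (rank 11), miR-26a-5p 0.166, miR-25-3p 0.209, miR-93-5p 0.235 and miR-103-3p 0.273. miR-191-5p was detected on 7 of 19 arrays only.

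Within single tissues miR-99b-5p ranked 119 of 315 in the nucleus accumbens (SD 0.198), 88 of 246 in the soleus (0.200) and 83 of 228 in the EDL (0.253). Its coefficient of variation over the arrays of a tissue was 12.4%, 13.2% and 15.9%. miR-99a-5p ranked 140, 25 and 16, miR-100-5p 96, 54 and 23, miR-125a-5p 153, 22 and 78, and miR-125b-5p 155, 132 and 72. In the nucleus accumbens only miR-100-5p had a smaller SD than miR-99b-5p among the 5p members. In the soleus only miR-125b-5p had a larger one (0.258), and in the EDL miR-99b-5p had the largest among them.

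Across groups, the gap between highest and lowest group mean was 1.52 for miR-99b-5p (rank 79 of 184), 0.49 for miR-100-5p, 0.53 for miR-99a-5p, 1.77 for miR-125b-5p and 2.50 for miR-125a-5p, with a median of 1.80 over the 184. miR-16-5p had 0.27, miR-26a-5p 0.38 and miR-93-5p 0.39. These gaps rest on the scaling: with the percentile over all probes they were 1.17 for miR-99b-5p, 1.22 for miR-100-5p, 0.66 for miR-99a-5p, 1.03 for miR-125b-5p, 2.09 for miR-125a-5p and 1.08 for miR-16-5p. With quantile normalization they were 0.88 for miR-99b-5p, 0.71 for miR-100-5p and 0.38 for miR-99a-5p. On that scale miR-125b-5p had 3.26, miR-125a-5p 2.10 and miR-16-5p 0.34.

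**Figure D5:**
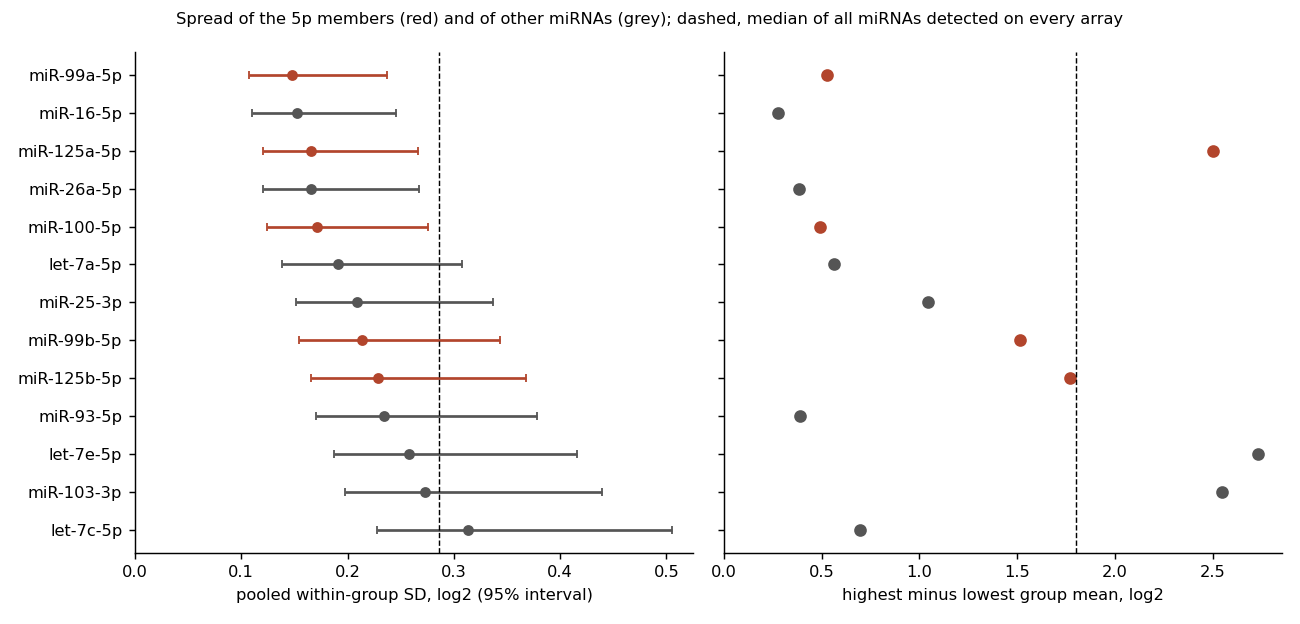
Pooled within-group SD with its 95% interval (left x axis, log2) and gap between the highest and lowest group mean (right x axis, log2) for the 5p members (red) and let-7 and reference miRNAs (grey), with the median of 184 miRNAs dashed. On the reported scale miR-99b-5p sits at 0.213 and 1.52, miR-99a-5p at 0.147 and 0.53, and miR-16-5p at 0.152 and 0.27.

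Set relative to miR-99b-5p on the same array, tissue differences take on its own shift. miR-99a-5p then came out lower in the nucleus accumbens by -0.98 (SE 0.0782, adjusted p = 9.79e-09) than in the soleus and by -1.10 than in the EDL, and miR-100-5p by -1.18 and -1.58. miR-125a-5p stayed higher, by 0.87 and 0.90, and miR-125b-5p was near level, at 0.13 (adjusted p = 0.0420) and -0.038 (95% interval -0.16 to 0.08). miR-16-5p, at -0.11 and 0.06 on the percentile scale, became -1.50 and -1.40. On this scale 29.8% of 449 miRNAs were higher and 52.3% lower in the nucleus accumbens than in the soleus, and 28.3% and 52.6% than in the EDL.

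Between strains, miR-125b-5p relative to miR-99b-5p passed no test within a tissue, but its groups did not overlap in any of the 3. miR-125b-5p minus miR-99b-5p was 5.72, 5.62, 5.45 and 5.67 in high-active nucleus accumbens, against 5.89, 6.06 and 5.85 in low-active nucleus accumbens. In the soleus it was 5.42, 5.44, 5.52 and 5.59 in high-active mice, against 5.79 and 5.79 in low-active mice. In the EDL it was 5.77 and 5.70 in high-active mice and 5.91, 5.94, 5.89 and 5.84 in low-active mice. The high-active arrays lay below the low-active ones with no overlap in each tissue, as did 20%, 19.1% and 17.9% of all miRNAs on this scale in nucleus accumbens, soleus and EDL. Of the 257 miRNAs tested in all 3 tissues, 11 (4.28%) did so in all 3. In the soleus the other 5p members did not overlap on this scale either, miR-99a-5p and miR-100-5p being lower in high-active mice and miR-125a-5p higher, where 10.9% of all miRNAs had every high-active array above.

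The difference was -0.32 in the nucleus accumbens (95% interval -0.60 to -0.04, adjusted p = 0.177), -0.30 in the soleus (-0.56 to -0.04, adjusted p = 0.221) and -0.16 in the EDL (adjusted p = 0.979), by limma within each tissue. None passed the adjusted test, beside 6.67%, 1.17% and 0.606% of all miRNAs. In the fit of all 19 arrays the nucleus accumbens difference had an adjusted p of 0.0207, beside 6.24% called. The mice are partly the same in the 3 tissues. The other probe of miR-125b-5p, on the percentile scale, differed between strains by 0.04 in the nucleus accumbens, 0.08 in the soleus and -0.08 in the EDL. The one used differed by -0.29, -0.22 and -0.05, and the probe used for miR-99b-5p by 0.02, 0.08 and 0.11.

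The choice of reference among the members moved the count of miRNAs past the strain test. In the nucleus accumbens it was 27 with the percentile, 26 with miR-99b-5p (22 of them shared), 22 with miR-99a-5p, 79 with miR-100-5p, 15 with miR-125a-5p and 16 with miR-125b-5p. In the soleus the counts were 4, 4 (4 shared), 14, 5, 43 and 1, and in the EDL 1, 2, 3, 1, 3 and 2, in the same order. miR-342-3p passed in all 3 tissues under each of the 6, higher in high-active mice by 1.86 to 2.39 in the nucleus accumbens, 1.96 to 2.52 in the soleus and 2.17 to 2.40 in the EDL.

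The miRNAs whose 6 group means ran most like a member's were found by the root mean square difference of centred log2 means, over the same 184 miRNAs. For miR-99b-5p these were miR-484 (0.125), miR-425-5p (0.130) and miR-125b-5p (0.154). miR-125b-5p was closest to miR-1839-5p (0.143), then miR-99b-5p and miR-425-5p (0.161). miR-125a-5p was closest to miR-107-3p (0.154), miR-103-3p (0.205) and let-7e-5p (0.206), the last from its own cluster. miR-99a-5p was closest to miR-93-5p (0.0694), miR-151-5p (0.0749) and let-7b-5p (0.103), and miR-100-5p to miR-26a-5p (0.0955), miR-494-3p (0.137) and miR-345-5p (0.166).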

How the data were processed

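The deposited scanner files, made with Feature Extraction 10.7.1.1 per the file headers, hold intensity values per spot, already background-subtracted by the software, and the authors also deposited log2 values, shifted per array by a percentile and centred on each miRNA within a tissue. The percentile and the genome build behind that table are not given in the sources used here. The authors dismissed some arrays before deposit. The authors' table was used as an alternative only.

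Control and outlier-marked spots (4.04% to 7.03% of spots per array) were left out and spots averaged per probe. Each array was scaled by its 75th percentile over probes detected on all arrays compared (328 for the 19 arrays; 594, 456 and 417 within nucleus accumbens, soleus and EDL), given a floor (21.2 for the 19 arrays; 24.3, 24.2 and 18.7 within tissues), which is the arrays' median of the lowest detected signal, and expressed in log2 units. The brightest probe stood for a miRNA. Strains were compared within a tissue, and tissues in 1 fit of 19 arrays with the mouse as a random block (correlation 0.0931), since the labels give tissues of a mouse its number. miRNAs detected on at least 3, 2 and 2 arrays of nucleus accumbens, soleus and EDL, and on at least 2 of all, were tested with limma 3.58.1 in R 4.3.3 (packages data.table, version 1.17.8, and jsonlite, version 2.0.0), at an adjusted p under 0.05 (Benjamini-Hochberg). The procedure was tested on simulated data.

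Named were all members, the let-7 miRNAs of their clusters, seed relatives, 6 common references, the 3 miRNAs most like each member, and miR-342-3p where the reference changed. The members and lists were chosen with earlier results of these data known. Alternatives were the scaling, background correction (normexp, offset 50, on median spot signals, since no mean signal was among the columns used), software totals, mean of probes, detection filter, slide and mouse as blocks, each array left out, and, chosen after seeing the data, the arrays of high epithelial signal (log2 sum over 10) left out and other scalings of let-7 and of the gap between group means. The number of arrays limits the precision.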

Additional observations from a re-analysis of the deposited data

How the results depend on the processing

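Changing 1 choice at a time, no alternative brought a 5p member past the strain test. The miR-99b-5p differences between nucleus accumbens and muscle kept their sign and their side of the threshold under the alternatives run, at 0.70 to 1.51 over the soleus and 0.80 to 1.80 over the EDL, apart from scaling by itself, which fixes them at 0. Without 1 array they were 1.34 to 1.43 and 1.36 to 1.54. Its strain difference in the soleus was 0.36 within slide 1. The count of 5p members lower in soleus than in EDL was 1, and 0 with the percentile over all probes, no scaling, normexp, detection on every array, and the mouse as a fixed replicate block. It ranged from 0 to 1 with single arrays left out. The replicate block (mouse) changed no other call of a member. Leaving each array out gave 0.00 to 0.16 for the strain difference of miR-99b-5p in the nucleus accumbens.

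Signs turned for some members under other scalings. Nucleus accumbens minus soleus became -0.15 for miR-99a-5p, -0.35 for miR-100-5p and -0.068 for miR-99b-3p with the percentile over all probes, -0.20 for miR-100-5p with quantile normalization, and -0.98, -1.18 and -0.48 for miR-99a-5p, miR-100-5p and miR-99b-3p relative to miR-99b-5p. Nucleus accumbens minus EDL became -0.30 for miR-99a-5p and -0.053 for miR-99b-3p with all probes, -1.10, -0.038 and -0.44 for miR-99a-5p, miR-125b-5p and miR-99b-3p relative to miR-99b-5p, and for miR-99b-3p -0.12 with normexp and -1.03 with software totals. The median over all miRNAs, nucleus accumbens minus soleus, was 0.20 as reported, -0.13 with all probes, -0.02 with quantile normalization, 0.28 unscaled and -0.48 relative to miR-99b-5p. With all probes, let-7c-5p became -0.077 and -0.024 and let-7a-5p -0.18 and -0.11 (chosen after seeing the data). Beyond the scaling itself the cause was not tested. Unscaled, the interaction of nucleus accumbens and soleus had 1 5p member past the test, miR-99a-5p (1.32, adjusted p = 0.0413 in limma), and miR-99b-3p turned to 0.66. Without scaling, though, all miRNAs tested shifted between strains, with a median of 0.24 in the nucleus accumbens and -0.68 in the soleus. As reported these medians were -0.11 and -0.02.

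The pooled SD of miR-99b-5p was 0.367 unscaled and 0.184 to 0.222 without 1 array. Counts of miRNAs past the strain test with a member as the reference moved to 79, 15 and 16 in the nucleus accumbens, 14, 43 and 1 in the soleus, and 3, 2, 3 and 2 in the EDL. Over all miRNAs the count under other settings was 0 to 58 in the nucleus accumbens, 0 to 52 in the soleus and 0 to 9 in the EDL. With software totals miR-125a-3p differed by -0.72 from the soleus and -0.12 from the EDL and lost both calls. On 4 nucleus accumbens arrays its total held that of miR-124-5p, and 9 totals of miR-99b-3p held that of miR-99a-5p. Signals of 3p arms near the floor limit what their differences can show.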
